A study of Homo sapiens with 6 samples.

Results

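The genes of the translation initiation factors were followed on arrays of A549, an established cell line from a human lung adenocarcinoma, with and without knockdown of MRPL35. They were taken as the genes with a probe set annotated to 1 symbol alone, where that symbol begins with EIF and a digit from 1 to 6, without the EIF2AK kinases. They make up 47 of the 18244 genes measured. Group KD is 3 samples that received a lentivirus with a short hairpin RNA (shMRPL35) against this gene, which encodes a mitochondrial ribosomal protein. Group NC is 3 samples that received a lentivirus with a control hairpin (shctrl). Both groups therefore carried a lentivirus, and the labels do not give the hairpin sequences, the number of hairpins or the time after infection. Each sample was hybridised to 1 Affymetrix array. The medium for all samples was RPMI-1640 with serum and antibiotics, and the labels give no other treatment. With 6 arrays the precision is limited by their number. Whether replicates are separate cultures is not in the labels, so the p-values rest on a spread that may be technical only.

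Initiation factors bring the initiator tRNA, the small ribosomal subunit and the mRNA together at a start codon. The factor eIF2 carries the initiator tRNA as a complex with GTP, eIF2B recharges it, and eIF3 is the large scaffold on the small subunit. The eIF4F complex, made of the cap-binding protein eIF4E, the scaffold eIF4G and the RNA helicase eIF4A, recruits the mRNA through its cap. In lung and other cancers the eIF4F step is known as a point where growth signalling through the kinase mTOR meets protein synthesis.

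Values are log2 probe-set values as deposited, with 1 probe set for each gene (the brightest), and a change is KD minus NC on that scale with its standard error (limma, n = 3 in each group). Array values are listed in replicate order, from 1 to 3. Genes are said to rise or fall where the limma p-value, adjusted by Benjamini-Hochberg over all genes, was under 0.05. The targeted gene MRPL35 was at 6.49, 6.44 and 6.56 on the KD arrays against 8.16, 8.05 and 8.36 on the NC arrays, a change of -1.69 ± 0.096 (limma adjusted p = 3.77e-06). Of 10 A549 and epithelial markers 8 lay above the median level of all genes, with KRT18, KRT8 and AKR1B10 among the brightest genes of the arrays, while EPCAM and TFF3 lay below it. Of the 10, 7 rose and none fell, where 17.6% of all genes rose and 15.9% fell. In a fit of genes at or above the 40th percentile of level alone, 29.2% rose and 26.2% fell. The summed signal of the 10 was 16.10 to 16.13 in KD and 15.61 to 15.66 in NC (log2). Of the 14 measured markers of leukocytes, fibroblasts and endothelium, CD68 alone lay above that median, and the leukocyte marker CD14, which lay below it, rose (0.60 ± 0.11, limma adjusted p = 0.00293). The fibroblast marker PDGFRA, also below it, fell (-0.37 ± 0.12, limma adjusted p = 0.0457), and the other 12 did not pass. PTPRC and LUM lay near the bottom of the scale. The summed signal of the leukocyte markers was 7.79 to 7.83 in KD and 7.49 to 7.72 in NC (log2), that of the fibroblast markers 6.87 to 7.12 and 6.94 to 7.22, and that of the endothelial markers 7.16 to 7.27 and 7.16 to 7.37. The part of such cells in the results was not tested. A lower signal can come from fewer cells that express a gene or from less RNA in each, and these cannot be told apart here.

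The initiation factor genes moved mostly downwards. Among the 47 genes, 21 passed as lower, 1 passed as higher and 25 did not pass, where 15.9% of all genes fell, 17.6% rose and 33.5% passed in either direction. Their median change was -0.18, against -0.018 over all genes, and 37 of 47 changes were negative. KD arrays all lay beyond all NC arrays for 28 of the 47, where this held for 44.7% of all genes, and all 21 genes that fell were among them. Initiation factors are bright on these arrays, with 43 of 47 above the median level, and bright genes passed the test more often. The 10946 genes at or above the 40th percentile of level were also fitted alone, with p adjusted over those genes. There 26.2% fell, 29.2% rose and 55.4% passed in either direction. Of the 45 initiation factors in that fit 21 fell and 2 rose. EIF4EBP2 rose in that fit (limma adjusted p = 0.0281) and did not pass over all genes. Changes of at least 2-fold were found in 4 of the 47 genes, where 5.36% of all genes changed that much. These were EIF1AD, EIF2S1, EIF2S3 and EIF4EBP1, and each of the 4 fell. With an added minimum of 1.5-fold 7 genes fell and none rose, where 7.76% of all genes fell and 7.77% rose by that rule. In a test against a log2 change of 0.2 (limma treat) 12 fell and none rose, where 10.0% of all genes fell and 10.6% rose.

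**Figure D1:**
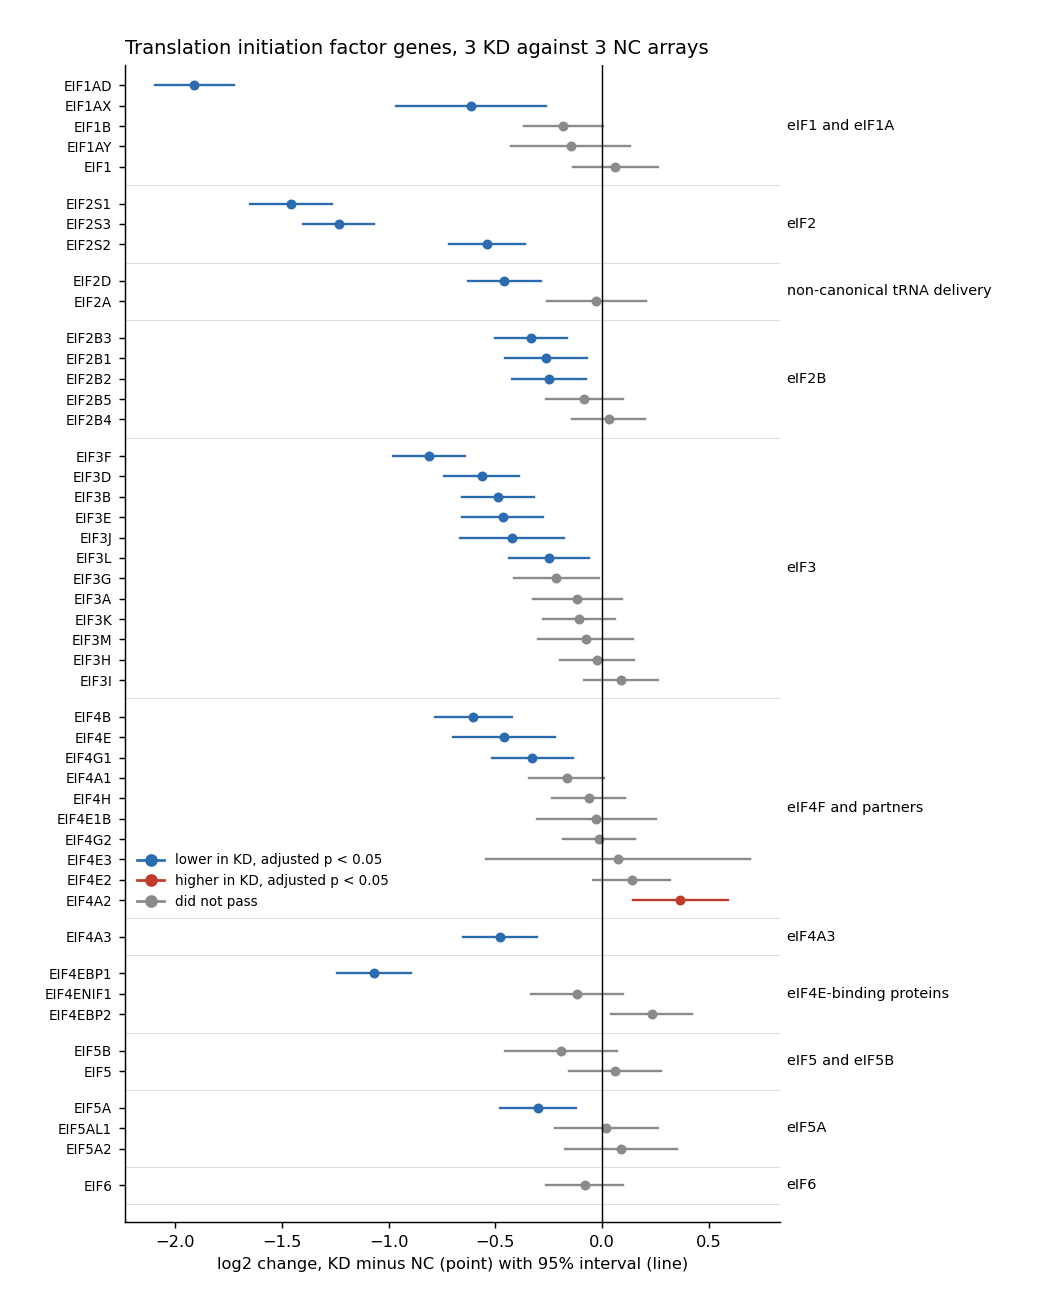
Log2 change (KD minus NC) of each of the 47 initiation factor genes, grouped by complex, with points for the estimate and lines for the 95% interval from limma (3 arrays in each group). EIF1AD, EIF2S1, EIF2S3 and EIF4EBP1 lie farthest to the left, and EIF4A2 is the one gene that passed on the right.

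The factor eIF2 was lower in all 3 of its subunits, where 15.9% of all genes fell. EIF2S1, the alpha subunit whose phosphorylation slows initiation under stress, was at 8.22, 8.19 and 8.04 in KD and at 9.68, 9.60 and 9.55 in NC. The groups were more than a log2 unit apart and each was tight, and the change was -1.46 ± 0.084, or 2.75-fold lower (limma adjusted p = 4.10e-06). EIF2S3, the gamma subunit that binds GTP and the initiator tRNA, read 9.53, 9.51 and 9.51 in KD and 10.78, 10.71 and 10.77 in NC. That is 2.35-fold lower (-1.23 ± 0.072, limma adjusted p = 4.47e-06), with no overlap. EIF2S2, the beta subunit that contacts eIF5 and eIF2B, read 10.12, 10.27 and 10.12 in KD and 10.70, 10.72 and 10.70 in NC. Its change of -0.54 ± 0.079 (limma adjusted p = 0.000694) was smaller, and its groups did not overlap either.

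The probe sets of these subunits did not all give the same size. All 4 probe sets of EIF2S3 fell, by 0.90 to 1.26 on the log2 scale. For EIF2S1 the 2 brightest of 5 fell, with changes of -1.46 and -1.44, while the other 3 changed by -0.23, -0.12 and -0.41 without passing over all probe sets. For EIF2S2 a dimmer probe set changed by -0.95 and fell, and the last one, near the bottom of the scale, changed by -0.15 and did not pass. Each subunit kept its direction and its call under the 14 alternatives in normalization, fit, probe sets, genes tested and arrays, with changes of -0.73 to -1.49 for EIF2S1, -0.51 to -0.95 for EIF2S2 and -1.14 to -1.26 for EIF2S3. At 1.45-fold EIF2S2 lay under the added minimum of 1.5-fold.

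**Figure D2:**
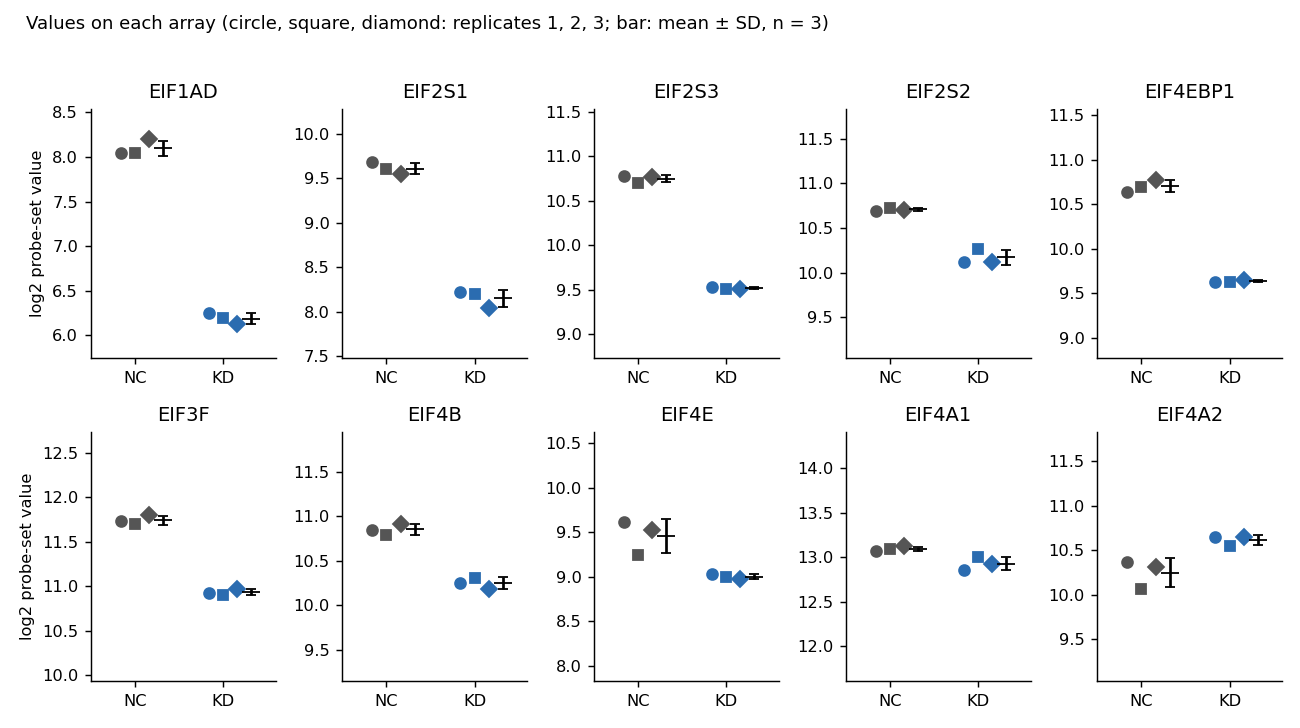
Log2 value on each array (circles, squares and diamonds for replicates 1, 2 and 3) for 10 initiation factor genes, with the mean ± SD of the 3 arrays at the right of each group; every panel spans the same number of log2 units from a different base. EIF1AD, the eIF2 genes, EIF4EBP1, EIF3F and EIF4B lie lower in each KD array than in each NC array, and EIF4A2 lies higher.

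Of the 5 subunits of eIF2B, the exchange factor that returns eIF2 to its GTP form, 3 fell by small amounts and 2 did not pass. Over all genes 15.9% fell, and 26.2% in the fit of genes at or above the 40th percentile of level alone. EIF2B3, which pairs with the catalytic subunit, read 8.38, 8.34 and 8.43 in KD and 8.68, 8.76 and 8.71 in NC, without overlap (-0.33 ± 0.074, limma adjusted p = 0.00725). The regulatory subunits EIF2B1 (-0.26 ± 0.085) and EIF2B2 (-0.25 ± 0.076) also fell, at limma adjusted p of 0.0415 and 0.0339. The call for EIF2B1 was lost without any 1 array other than NC replicate 2 (limma adjusted p of 0.0712 to 0.147), with the replicate block (0.0592) and with the mean of its probe sets (0.0563). That for EIF2B2 was lost without any 1 array other than NC replicate 1 (limma adjusted p of 0.0529 to 0.115). EIF2B4, a regulatory subunit, and EIF2B5, the catalytic one, changed by 0.030 ± 0.075 and -0.084 ± 0.080. Their 95% intervals reached from -0.14 to 0.20 and from -0.27 to 0.098.

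A pair of factors can deliver tRNA to the ribosome without eIF2. EIF2D, which binds the small subunit through domains it shares with the proteins MCTS1 and DENR, read 7.91, 8.02 and 7.96 in KD and 8.44, 8.39 and 8.43 in NC and fell (-0.46 ± 0.075, limma adjusted p = 0.00131). The mean of its bright and its dim probe set did not pass (-0.22, limma adjusted p = 0.0515). EIF2A, a single protein with no subunit in common with eIF2, changed by -0.028 ± 0.10 with overlapping groups.

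Among the genes of eIF1 and eIF1A, which scan for the start codon, EIF1AX fell and EIF1, EIF1B and EIF1AY did not pass. EIF1AX, on the X chromosome, read 7.79, 7.82 and 7.57 in KD and 8.57, 7.97 and 8.49 in NC. NC replicate 2 lay closer to the KD arrays than to the other NC arrays, and the change was -0.62 ± 0.15 (limma adjusted p = 0.0133). The call was lost without KD replicate 3 (adjusted p = 0.0566), NC replicate 1 (0.0535) or NC replicate 3 (0.0608). A second EIF1AX probe set changed by -0.17 and did not pass, and the mean of both was -0.40. EIF1 changed by 0.063 ± 0.088 and EIF1B by -0.18 ± 0.082. EIF1AY, a near-identical copy of EIF1AX measured by 1 probe set that can hybridise to several transcripts, changed by -0.15 ± 0.12, and the copies may share signal. Without NC replicate 2 EIF1B (-0.23, limma adjusted p = 0.0422) and EIF1AY (-0.28, limma adjusted p = 0.0406) passed as lower, and EIF1B also passed with array weights.

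The largest change among the 47 genes was that of EIF1AD, which encodes a protein named for its eIF1A-like domain and is not one of the classical initiation factors. It read 6.24, 6.19 and 6.13 in KD and 8.04, 8.05 and 8.20 in NC, which is 3.76-fold lower (-1.91 ± 0.082, limma adjusted p = 1.42e-06). Its only other probe set went the opposite way and rose, from 6.37 in NC to 6.77 in KD (0.40 ± 0.10, limma adjusted p = 0.0114 over all probe sets). The mean of both was -0.75 and passed. Which transcripts each probe set reads was not tested.

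**Figure D3:**
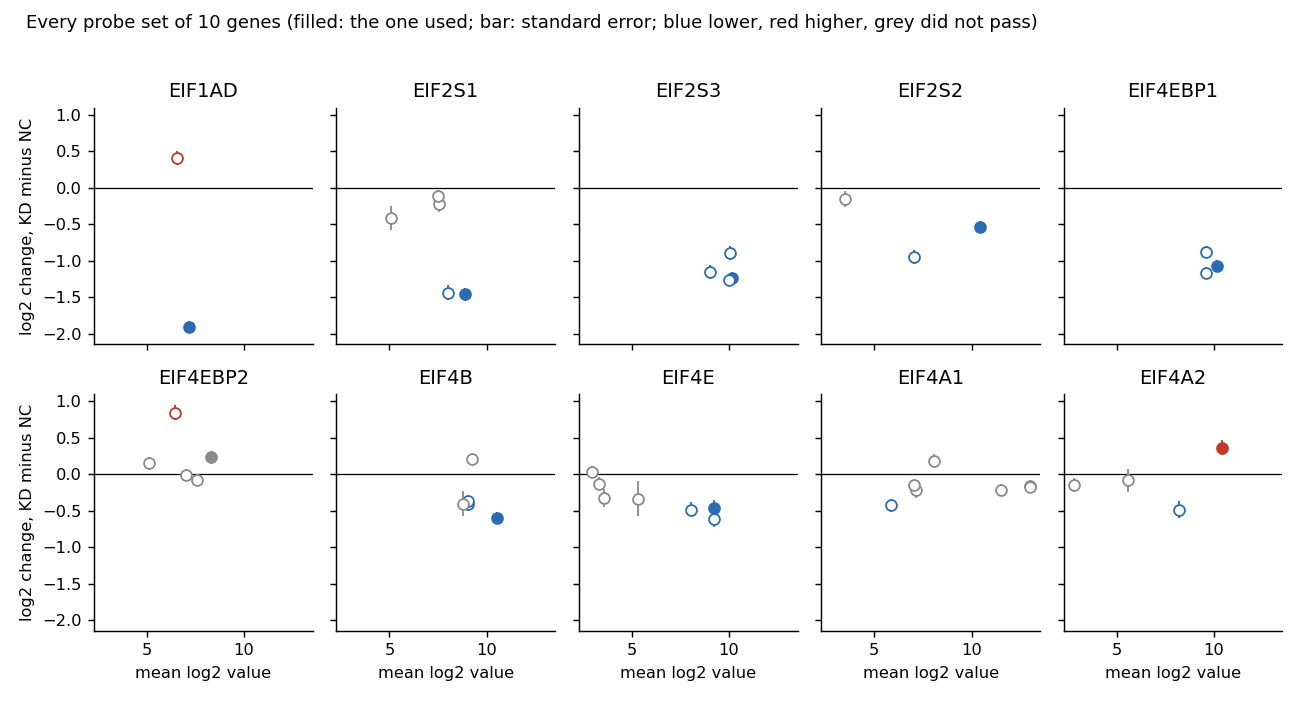
Log2 change (KD minus NC, ± standard error) against mean log2 value for every probe set of 10 initiation factor genes, with the probe set used for the gene filled. All probe sets of EIF2S3 and EIF4EBP1 fell, while EIF1AD and EIF4A2 each have 1 that fell and 1 that rose.

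The scaffold eIF3 was lower in some of its subunits. Of 12 genes measured alone, EIF3B, EIF3D, EIF3E, EIF3F, EIF3J and EIF3L fell and 6 did not pass, with a median change of -0.23. Of all genes 15.9% fell and 33.5% passed in either direction. All 12 lay above the median level. In the fit of genes at or above the 40th percentile of level alone, 26.2% fell and 55.4% passed in either direction. EIF3F, a subunit with an MPN domain, read 10.92, 10.90 and 10.97 in KD and 11.73, 11.70 and 11.79 in NC, or 1.75-fold lower (-0.81 ± 0.074, limma adjusted p = 5.00e-05). Its second bright probe set changed by -0.82 and fell. Both can hybridise to several transcripts by their suffix, and with such probe sets left out a dim one remained at -0.24 (limma adjusted p = 0.225). EIF3D, which can bind the cap of certain mRNAs, read 10.11, 10.05 and 10.00 in KD and 10.55, 10.65 and 10.66 in NC (-0.56 ± 0.078, limma adjusted p = 0.000493). EIF3B, the subunit that organises the mobile part of the complex, read 11.01, 11.02 and 10.95 in KD and 11.51, 11.44 and 11.50 in NC (-0.49 ± 0.074, limma adjusted p = 0.000889). For each of these subunits the KD arrays lay below the NC arrays with a clear gap, and 7 of 8 EIF3B probe sets and both EIF3D probe sets fell.

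EIF3E, a subunit known from a viral integration site in mammary tumours, read 11.11, 11.28 and 11.23 in KD and 11.75, 11.63 and 11.63 in NC (-0.47 ± 0.083, limma adjusted p = 0.00212). Both of its probe sets fell. Both can hybridise to several transcripts by their suffix, so EIF3E has no value with such probe sets left out. EIF3J, a loosely bound subunit, changed by -0.42 ± 0.11 (limma adjusted p = 0.0137), a call lost without KD replicate 2 (adjusted p = 0.0589) or KD replicate 3 (0.0509). EIF3L, which pairs with EIF3K at the edge of the complex, changed by -0.25 ± 0.082 (limma adjusted p = 0.0445). That call was lost without any KD replicate or NC replicate 3 (limma adjusted p of 0.0931 to 0.144), with the replicate block (0.0603) and with cross-hybridising probe sets left out (0.0543). The other 6 did not pass. EIF3A, the largest subunit, changed by -0.12 ± 0.091, EIF3G by -0.21 ± 0.088, EIF3H by -0.025 ± 0.076, EIF3I by 0.088 ± 0.076, EIF3K by -0.11 ± 0.074 and EIF3M by -0.077 ± 0.098. Of these, EIF3G and EIF3K had KD arrays all below the NC arrays without passing the test, and EIF3G passed as lower with trend and robust fitting (limma adjusted p = 0.0329). Of the 3 other EIF3M probe sets 1 fell (-0.68) and the others changed by -0.30 and -0.13, and the mean of all 4 passed as lower (-0.30, limma adjusted p = 0.0317).

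In eIF4F the cap-binding subunit and the scaffold fell and the main helicase did not pass. EIF4E, the cap-binding protein, read 9.03, 9.0 and 8.97 in KD and 9.61, 9.24 and 9.52 in NC (-0.46 ± 0.10, limma adjusted p = 0.00801). The KD arrays were tight and NC replicate 2 lay below the other NC arrays, with no overlap. Its 3 brightest probe sets of 7 fell, by 0.46, 0.61 and 0.49 on the log2 scale. All 3 can hybridise to several transcripts by their suffix. With such probe sets left out a probe set near the bottom of the scale, at a mean of 3.55, remained. It changed by -0.33 and did not pass (limma adjusted p = 0.0672). EIF4G1, the scaffold, read 9.70, 9.70 and 9.71 in KD and 10.04, 9.91 and 10.14 in NC (-0.33 ± 0.084, limma adjusted p = 0.0145), and its call was lost without KD replicate 2 (0.0513) or KD replicate 3 (0.0532). EIF4B, a cofactor that stimulates the helicase, read 10.25, 10.31 and 10.18 in KD and 10.85, 10.79 and 10.92 in NC. It was 1.52-fold lower (-0.60 ± 0.079, limma adjusted p = 0.000371), with 3 of its 5 probe sets lower and 1 at 0.21 that did not pass. The mean of the 5 was -0.32, and all 5 can hybridise to several transcripts by their suffix.

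The helicase genes EIF4A1 and EIF4A2 encode closely related proteins. EIF4A1, the main form in dividing cells, read 12.85, 13.01 and 12.92 in KD and 13.07, 13.09 and 13.12 in NC and did not pass (-0.17 ± 0.077, limma adjusted p = 0.145). It passed as lower with trend and robust fitting (limma adjusted p = 0.00419). With cross-hybridising probe sets left out its value was 0.18 and did not pass, and 1 of its 6 other probe sets fell (-0.43). EIF4A2, the second form, read 10.65, 10.55 and 10.65 in KD and 10.38, 10.07 and 10.31 in NC and was the only one of the 47 genes that rose (0.37 ± 0.098, limma adjusted p = 0.0182). The rise rests on 1 probe set that can hybridise to several transcripts. With such probe sets left out EIF4A2 was lower (-0.48, limma adjusted p = 0.00928), with the mean of its probe sets the change was -0.085 and did not pass, and without KD replicate 1 or KD replicate 3 the adjusted p was 0.0637 or 0.0697. The change of EIF4A2 thus had no settled direction. EIF4A3, a related helicase that acts in the exon junction complex and not in eIF4F, read 10.25, 10.33 and 10.28 in KD and 10.71, 10.83 and 10.75 in NC and fell (-0.48 ± 0.076, limma adjusted p = 0.00118) on its single probe set.

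The other genes around eIF4F did not pass. EIF4H, a smaller relative of EIF4B, changed by -0.064 ± 0.075, and EIF4G2, which lacks the eIF4E-binding part of the scaffold, by -0.014 ± 0.074. The cap-binding relatives EIF4E2 (0.14 ± 0.080) and EIF4E3 (0.075 ± 0.27) had positive changes, and EIF4E1B, near the bottom of the scale, changed by -0.027 ± 0.12. EIF4E3 varied more within its groups than any other of the 47 genes, from 5.74 to 6.55 in KD and from 5.46 to 6.47 in NC.

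Of the proteins that hold eIF4E away from the scaffold, EIF4EBP1 fell and EIF4EBP2 did not pass. EIF4EBP1, the binding protein that mTOR phosphorylates to release eIF4E, read 9.63, 9.63 and 9.65 in KD and 10.64, 10.70 and 10.78 in NC. It was 2.10-fold lower (-1.07 ± 0.076, limma adjusted p = 1.26e-05), and all 3 of its probe sets fell, by 0.88 to 1.17 on the log2 scale. EIF4EBP2, its paralogue, read 8.33, 8.37 and 8.50 in KD and 8.09, 8.18 and 8.23 in NC, higher in each KD array but short of the threshold (0.23 ± 0.083, limma adjusted p = 0.0618). It passed as higher under 5 of 14 alternatives, and 1 of its dimmer probe sets rose by 0.85 while 3 others changed by -0.072 to 0.15. EIF4ENIF1, which carries eIF4E into the nucleus, changed by -0.12 ± 0.095.

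The late-acting factors did not pass, apart from EIF5A. EIF5, which triggers GTP hydrolysis by eIF2, changed by 0.059 ± 0.095, EIF5B, which joins the ribosomal subunits, by -0.19 ± 0.12, and EIF6, which keeps the large subunit apart until it is mature, by -0.081 ± 0.079. EIF5B passed as lower with array weights (-0.28, limma adjusted p = 0.0331) and without NC replicate 2 (-0.31, limma adjusted p = 0.0185), and 1 of its 3 other probe sets fell (-0.39). EIF5A, a hypusine-containing factor now known to act mainly in elongation, read 11.99, 12.01 and 11.90 in KD and 12.29, 12.31 and 12.20 in NC and fell (-0.30 ± 0.078, limma adjusted p = 0.0155). Its 3 bright probe sets each fell, and all 3 can hybridise to several transcripts. With such probe sets left out a probe set near the bottom of the scale remained at -0.15 (limma adjusted p = 0.490), and without KD replicate 3 the adjusted p was 0.0785. Its paralogue EIF5A2 changed by 0.089 ± 0.12, and EIF5AL1, a copy of EIF5A, lay at the bottom of the scale at 0.019 ± 0.11.

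Within-array differences between 7 pairs of related genes were compared in an exact two-sided permutation test, in which 3 arrays against 3 cannot go below p = 0.1. EIF4EBP1 changed by -1.30 relative to EIF4EBP2, EIF4E by -0.60 relative to EIF4E2, EIF4A1 by -0.53 relative to EIF4A2 and EIF5A by -0.39 relative to EIF5A2. EIF2A changed by 0.43 relative to EIF2D and EIF1 by 0.24 relative to EIF1B. For these 6 pairs the KD and NC differences did not overlap (exact permutation p = 0.1, adjusted p = 0.117). The share of other gene pairs without overlap was not taken. Of all single genes 44.7% had no overlap, so the lack of overlap in these pairs has no like reference. For EIF4E against EIF4E3 they overlapped (-0.53, exact permutation p = 0.2, adjusted p = 0.2). With cross-hybridising probe sets left out the difference between EIF4A1 and EIF4A2 turned to 0.67, and that between EIF4EBP1 and EIF4EBP2 was -2.02. With the mean of probe sets it was -0.080 for EIF4A1 against EIF4A2, -0.30 for EIF4E against EIF4E2, -0.25 for EIF4E against EIF4E3 and 0.13 for EIF2A against EIF2D. With cross-hybridising probe sets left out EIF5A changed by -0.24 relative to EIF5A2.

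Across the 21 genes that fell, 19 had further probe sets, 49 in all, of which 45 had a negative change, 27 fell and 1 rose (EIF1AD), where 14.1% of all probe sets fell, 16.5% rose and 30.6% passed in either direction. For 15 of these 19 genes at least 1 further probe set fell. All 19 were picked because they fell on the same arrays, so their further probe sets are no independent check. The share of all probe sets is therefore no like reference for them. Over the 14 alternatives other than the stricter calls, as far as each could be computed, 11 of the 21 genes kept their call and direction, and 18 of the 25 genes that did not pass kept that status. The other 7 were EIF1B, EIF1AY, EIF3G, EIF3M, EIF4A1, EIF4EBP2 and EIF5B. Of those 25, 15 changed by less than 0.1 on the log2 scale, and for 24 the 95% interval lay within 0.5 on either side of 0. EIF4E3 was the exception. NC replicate 2 was the lowest NC array for 25 of the 47 genes, where NC replicate 1 was lowest for 15 and NC replicate 3 for 7. The lowest array was not counted over all genes. Without NC replicate 2, 23 of the 47 genes fell. Calls rose over all 18244 genes as well, with 3279 lower against 2903 with all arrays.

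The start regions of the initiation factor genes were searched for short motifs on both strands. A RefSeq window of 300 bases in GRCh38.p14, from 250 before to 50 after the annotated start, was matched for 40 of the 47 genes, using the first window listed for each gene. The E-box CACGTG, which MYC and related factors can bind, was found in 10 of 40 windows, against 8.80% of the 14494 genes measured that have a window. It was in 6 of 17 windows of genes that fell and in 4 of 23 of the others (EIF1B, EIF3K, EIF4H and EIF5A2). The share among bright genes alone was not taken, and a link between the motif and the falls was not tested. The E2F element GCGGGAA was in 2 of 40, those of EIF1AD and EIF4A3, against 8.88% of all. The ATF4 element TGATGNAA, with N for any base, was in none of the 40, against 2.56% of all. Some genes have more than 1 window, and windows after the first were not counted. A later window of EIF4E3 holds the E2F element and another the ATF4 element. Of the 3 windows of EIF4G1 only the first listed holds any of these motifs. A match describes the letters and shows no binding, and no binding was measured here. The 6 windows below are those of genes that fell and hold the E-box. They are shown as the bases before the annotated start on the gene's strand, read 5′ to 3′ and ending at the base before the start, with each E-box in capitals.
EIF4E (chr4:98929134-98929383, minus strand): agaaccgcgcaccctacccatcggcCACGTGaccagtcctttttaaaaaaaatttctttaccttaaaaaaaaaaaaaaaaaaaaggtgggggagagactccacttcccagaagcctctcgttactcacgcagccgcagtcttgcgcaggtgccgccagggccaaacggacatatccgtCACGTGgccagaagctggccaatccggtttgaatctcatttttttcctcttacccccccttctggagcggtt
EIF4G1 (chr3:184314446-184314605, plus strand): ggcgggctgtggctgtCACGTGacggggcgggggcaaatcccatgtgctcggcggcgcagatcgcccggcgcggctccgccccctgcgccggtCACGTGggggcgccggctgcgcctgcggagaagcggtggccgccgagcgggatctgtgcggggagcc
EIF4B (chr12:53006356-53006455, plus strand): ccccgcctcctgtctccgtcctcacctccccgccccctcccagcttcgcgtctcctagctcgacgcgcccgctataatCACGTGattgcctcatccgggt
EIF3F (chr11:7987237-7987336, plus strand): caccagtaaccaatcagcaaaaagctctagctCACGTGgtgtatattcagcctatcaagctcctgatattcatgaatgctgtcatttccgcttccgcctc
EIF4A3 (chr17:80147129-80147268, minus strand): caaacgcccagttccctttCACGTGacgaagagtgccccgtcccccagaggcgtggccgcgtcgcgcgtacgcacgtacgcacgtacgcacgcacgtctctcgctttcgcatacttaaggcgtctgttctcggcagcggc
EIF2B3 (chr1:44986596-44986795, minus strand): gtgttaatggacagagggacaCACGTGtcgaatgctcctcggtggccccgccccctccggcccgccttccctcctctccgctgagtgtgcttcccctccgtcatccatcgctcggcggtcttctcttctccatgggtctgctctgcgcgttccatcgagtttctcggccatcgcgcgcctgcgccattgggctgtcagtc

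The E-boxes of EIF4E begin 225 and 72 bases before its start and those of EIF4G1 144 and 67 bases before. EIF4B has its match 22, EIF3F 68, EIF4A3 121 and EIF2B3 179 bases before the start. The windows of EIF2S1 and EIF2S3, the eIF2 genes with the largest changes that have one, hold none of the 3 motifs.

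Other genes of initiation and its control, 40 in all, went both ways, with 11 lower, 8 higher and 21 that did not pass (15.9% of all genes fell and 17.6% rose). Their median change was -0.075. They too are bright, with 37 of 40 above the median level. In the separate fit of genes at or above the 40th percentile of level alone, 26.2% of those genes fell and 29.2% rose. In that fit 11 of these related genes fell and 10 rose. The counts of 11 and 8 above are adjusted over all genes instead. The falls were led by DENR, which with MCTS1 releases tRNA from the small subunit and restarts ribosomes. DENR read 8.77, 8.72 and 8.78 in KD and 9.93, 9.78 and 9.90 in NC, or 2.17-fold lower (-1.11 ± 0.078, limma adjusted p = 1.21e-05), and all 3 of its probe sets fell. Next were ABCE1, which splits ribosomes for recycling (-0.68 ± 0.093), MIF4GD, a small relative of the scaffold (-0.68 ± 0.079), PABPC4, a cytoplasmic poly(A)-binding protein (-0.63 ± 0.083), and DHX29, a helicase for structured leaders (-0.61 ± 0.085), at limma adjusted p of 0.000183 to 0.000530. MCTS1, named here after its value was seen because it is the partner of DENR, also fell (-0.56 ± 0.093, limma adjusted p = 0.00140).

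The rises with the largest changes included genes that hold back or signal to the eIF4F step. PDCD4, which binds eIF4A and blocks it, read 9.77, 9.77 and 9.71 in KD and 8.50, 8.30 and 8.59 in NC. That is 2.45-fold higher (1.29 ± 0.093, limma adjusted p = 1.39e-05), and all 4 of its probe sets rose. MKNK2, a kinase that phosphorylates eIF4E, read 9.82, 9.83 and 9.86 in KD and 8.94, 9.0 and 9.05 in NC (0.84 ± 0.074, limma adjusted p = 4.06e-05), and its relative MKNK1 changed by 0.54 ± 0.097 and rose. The groups of PDCD4 and of both kinases did not overlap, which was a condition for naming them. MTOR rose on its brightest probe set (0.48 ± 0.11, limma adjusted p = 0.00870) and not with the mean of its 3 (0.15, limma adjusted p = 0.159).

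Of the 4 eIF2 kinases EIF2AK4, which senses uncharged tRNA, rose (0.59 ± 0.13, limma adjusted p = 0.00736). Its value rests on 1 probe set that can hybridise to several transcripts, and the other changed by -0.17 and did not pass. EIF2AK1 (-0.084 ± 0.087), EIF2AK2 (0.040 ± 0.083) and EIF2AK3 (0.26 ± 0.15) did not pass, nor did PPP1R15A (-0.11 ± 0.089) and PPP1R15B (0.24 ± 0.088), the subunits that direct a phosphatase to eIF2. Among 13 genes of elongation and release 2 passed as lower, 1 as higher and 10 did not pass, which is 15.4% lower and 7.69% higher beside 15.9% and 17.6% of all genes. Their median change was -0.062. All 13 lay above the median level. In the separate fit of genes at or above the 40th percentile alone, 26.2% of those genes fell and 29.2% rose. The calls of the 13 given here are adjusted over all genes instead. ETF1, the factor that reads stop codons (-0.63 ± 0.078), and EEF2, which moves the ribosome along the mRNA (-0.51 ± 0.074), fell at limma adjusted p of 0.000271 and 0.000666. Of the 3 other ETF1 probe sets 1 fell, and the mean of all 4 was -0.35. EEF1A2, a tissue-restricted elongation factor, rose (0.69 ± 0.12, limma adjusted p = 0.00196).

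**Figure D4:**
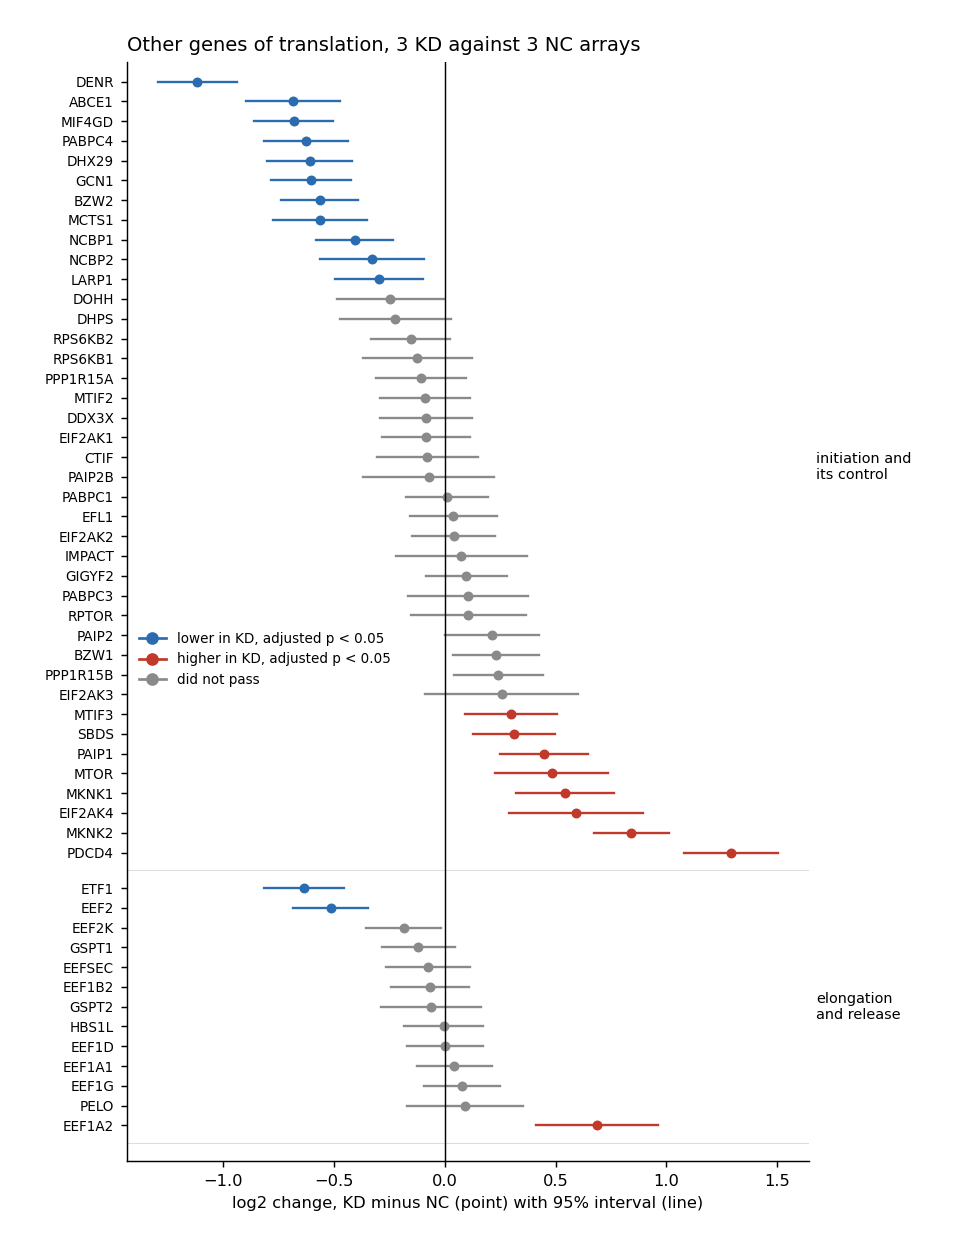
Log2 change (KD minus NC, points) with the 95% interval from limma (lines) for 40 other genes of initiation and its control and 13 genes of elongation and release, 3 arrays in each group. DENR lies farthest to the left and PDCD4 farthest to the right, and most elongation and release genes lie near 0.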

How the data were processed

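The authors' deposited table held 49395 probe sets on 6 arrays. The deposited values were read as log2 from their range, and the steps by which the authors combined and normalized probes to make these log2 values are not given in the sources used here. A change is therefore one relative to most other genes. Array medians lay between 5.49 and 5.55. Per the platform annotation 1 gene symbol was given for 45278 probe sets, several for 1333 and none for 2682, beside 102 control probe sets. Probe sets with several symbols were not used for the 47 genes, so EIF3C and EIF3CL, which share theirs, and EIF4EBP3 are not among the 47. EIF4G3 was not analysed here. The 47 genes had 153 probe sets, 7 of them a single one.

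Tests used limma 3.58.1 in R 4.3.3 (lmFit, eBayes, two-sided) over 18244 genes with the group as the only term. Alternatives changed the normalization (quantile or median centring), the fit (trend and robust eBayes, weights for arrays, or a block for the replicate number), the value of a gene (a mean over its probe sets, or no probe set of the x or s type, which may cross-hybridise), the genes tested (none under the 40th percentile of level), the call, or dropped 1 array. The scripts were tested on simulated data with known changes. The source names of NC replicates 2 and 3 carry other cell line numbers than their characteristics, and both were used as A549.

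The genes and lists were chosen with earlier results of these data known. By rule the text names the 14 largest falls and 10 largest rises that passed without overlap of the groups, examples of each complex, the gene pairs, and up to 5 related genes of initiation and 3 of elongation or release in each direction. The other initiation factor genes were named so that all 47 are accounted for. Sequences are from RefSeq, GRCh38.p14. Figures were drawn with matplotlib 3.10.9.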

Additional observations from a re-analysis of the deposited data

How the results depend on the processing

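With 3 arrays in each group small changes can be missed, and no detection call per probe set was used, so values near the bottom of the scale may be background. The count of initiation factor genes that fell was 21 and lay between 16 and 23 under other normalization, fitting, weighting and probe-set choices. The 16 were out of 43 that could be tested with cross-hybridising probe sets left out, where 2427 of 16772 genes fell. The 23 came with trend and robust fitting or with array weights, where 3095 and 3361 of all 18244 genes fell. A treat test against 0.2 left 12 lower and 0 higher (10.0% and 10.6% of all genes), and a 1.5-fold minimum 7 lower and 0 higher (7.76% and 7.77%). The higher genes numbered 2 with trend and robust fitting, with array weights or with dim genes left out. Among the 40 related genes of initiation, treat left 5 higher, and the 1.5-fold minimum 3 higher and 6 lower. Of the elongation and release genes 4 fell with the mean of probe sets and 1 with the 1.5-fold minimum. EIF4A2 turned to -0.085 with the mean of probe sets and to -0.48 with cross-hybridising probe sets left out, where EIF2AK4 turned to -0.17 and the difference between EIF4A1 and EIF4A2 to 0.67. Leaving out 1 array gave 14 (without KD replicate 3) to 23 initiation factor genes lower and 0 to 1 higher (0 without KD replicate 1 or 3), a median change of -0.23 to -0.13, and a change in MRPL35 of -1.76 to -1.61. Among related genes it gave 9 to 11 lower and 7 to 9 higher, and among elongation and release genes 2 to 3 lower and 1 higher. The counts over all 18244 genes moved too. Without KD replicate 3, 2343 fell and 2612 rose, and without NC replicate 2, 3279 fell and 3467 rose. With all arrays 2903 fell and 3207 rose.

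Whether replicate numbers pair the samples was not settled by 3 arrays in each group. Same-numbered arrays correlated at 0.25, 0.26 and -0.096 in their deviations from the group means, and 3 of 6 arrays correlated best with their own number. With the replicate block 19 initiation factor genes fell and 1 rose, where 3014 of all 18244 genes fell and 3262 rose. The planned comparison of EIF4G1 with EIF4G3 was not run.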

Other observations

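Probe sets annotated to more than 1 gene stood outside the comparisons. Of 5 probe sets shared by EIF3C and its copy EIF3CL, the eIF3 scaffold subunit absent from the counts above, the 3 bright ones changed by -0.025, -0.29 and 0.0024 on the log2 scale, and only the middle one passed (limma adjusted p = 0.0390 over all probe sets). The 2 dim ones changed by -0.28 and -0.15. The 3 probe sets shared by EIF5A and EIF5AL1 changed by -0.24, -0.29 and -0.27, close to the -0.30 of EIF5A alone. Of those shared by EIF4A2 and a small nucleolar RNA, the 2 with SNORA4 rose by 0.55 and 0.64, while the 2 with SNORA63 changed by -0.023 and -0.15 and did not pass. The probe set shared by EIF4EBP3 and its read-through transcript with ANKHD1 changed by 0.00093.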
